A study of Mus musculus with 2 samples.

Results

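The genes described here are 10 host antiviral restriction factors of the mouse, Ifitm1, Ifitm2, Ifitm3, Bst2, Ly6e, Samhd1, Apobec3, Fv1, Zc3hav1 and Trim25. They were chosen by symbol, and 19 of the 34945 probe sets that carry 1 gene were annotated to them, which makes 10 of the 18193 genes on the array. Their expression was read in a pair of mouse lines described as endothelial, MS-1 from the microvasculature of the pancreas and SVEC4-10 from an axillary lymph node, with 1 Affymetrix array of 1 culture for each. Both are immortalised lines, grown to confluence for 3 to 5 days and used at or below passage 5, MS-1 in DMEM with 5% fetal calf serum and SVEC4-10 in DMEM with 10%, so line and serum cannot be told apart. The labels name no virus, interferon or other treatment, and no mouse strain. With 1 array per line there is no replicate check of any difference and no p-value, and all comparisons below are between these 2 arrays.

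Restriction factors are proteins that act inside or on the surface of a cell to block a step of a virus's life cycle. The IFITM proteins sit in endosomal and plasma membranes and hinder the fusion of incoming virus, Bst2 (tetherin) holds budding virions at the cell surface, Samhd1 breaks down the deoxynucleotides that reverse transcription needs, and Zc3hav1 (the zinc-finger antiviral protein ZAP) binds CpG-rich viral RNA with the ubiquitin ligase Trim25 as its partner. Many of these genes are held at a basal level in most cells and are raised further by interferon, whose signal reaches promoters through the response element bound by STAT and IRF factors.

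Values are deposited probe set signals on a linear scale. Background, the 95th percentile of 129 probe sets for smell and taste receptors and keratin-associated proteins, was a signal of 16.3 in MS-1 and 17.6 in SVEC4-10, and 12583 genes exceeded it on at least 1 array. A positive log2 ratio means more signal in SVEC4-10. The error of a single ratio was estimated from the difference between the ratios of the 2 brightest probe sets of a gene. It is the root mean square of this difference divided by the square root of 2, and so is smaller than the disagreement itself. This error was 0.48 (4813 genes), and ran from 0.54 (dimmest 1605 genes) to 0.44 (brightest 1604 genes). It holds no variation between cultures. The cell type markers differed between the arrays: of 15 listed endothelial markers, 14 were above background in MS-1 (summed signal 32408) and 3 in SVEC4-10 (summed signal 150), where Pecam1 and Cdh5 were below background. Of 12 listed fibroblast and mesenchymal markers, 9 were above background in SVEC4-10 (summed signal 24405) and 1 in MS-1 (97.5), Fap and Thy1 were below it on both arrays, and Fbn1 was not analysed here. Of 10 mesothelial markers, 9 were above background in SVEC4-10 (summed signal 17311) and 5 in MS-1 (414), and 2 of the 10, the keratins Krt18 (8.21-fold) and Krt19 (at least 6.85-fold), were higher in MS-1. The part of this difference in cell identity in the values below was not tested.

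Of the 10 genes, 7 differed by at least the error of 0.48. Against 2 times this error, 7 of the 10 fell short. The smallest ratio beyond the error, 0.50 for Trim25, was matched or exceeded in size by 53.0% of all measured genes. All 10 were above background on both arrays, although only barely so for Ifitm1 on both and for Fv1 in MS-1 (1.21 times background). The share of all measured genes above background on both arrays is not given here. Differences of less than 2-fold were seen for 7 of the 10. Fv1, which blocks the capsid of murine leukaemia viruses, was the 1 gene at least 4-fold higher in SVEC4-10, and none was at least 4-fold higher in MS-1. Across all measured genes, 5.78% were at least 4-fold higher in SVEC4-10 and 4.30% in MS-1. At 2-fold, 2 genes, Fv1 and Samhd1, were higher in SVEC4-10 (15.3% of all measured genes) and 1, the cytidine deaminase Apobec3, in MS-1 (12.1%). With 10 genes these counts are near those shares. Just below the 4-fold limit lay Apobec3, 3.81-fold higher in MS-1, and Samhd1, 3.43-fold higher in SVEC4-10, and just above it Fv1, 5.17-fold. The median log2 ratio of the 10 genes was 0.57, against 0.018 over all measured genes, whose middle 50% lay between -0.50 and 0.58. The poly-A control transcripts spiked into the samples were 1.43-fold brighter in SVEC4-10. Scaling the arrays to them lowers every ratio by 0.51, so that the median became 0.056 (all genes -0.49) and the split between lines changed from 8 genes higher in SVEC4-10 and 2 in MS-1 to 5 and 5.

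**Figure D1:**
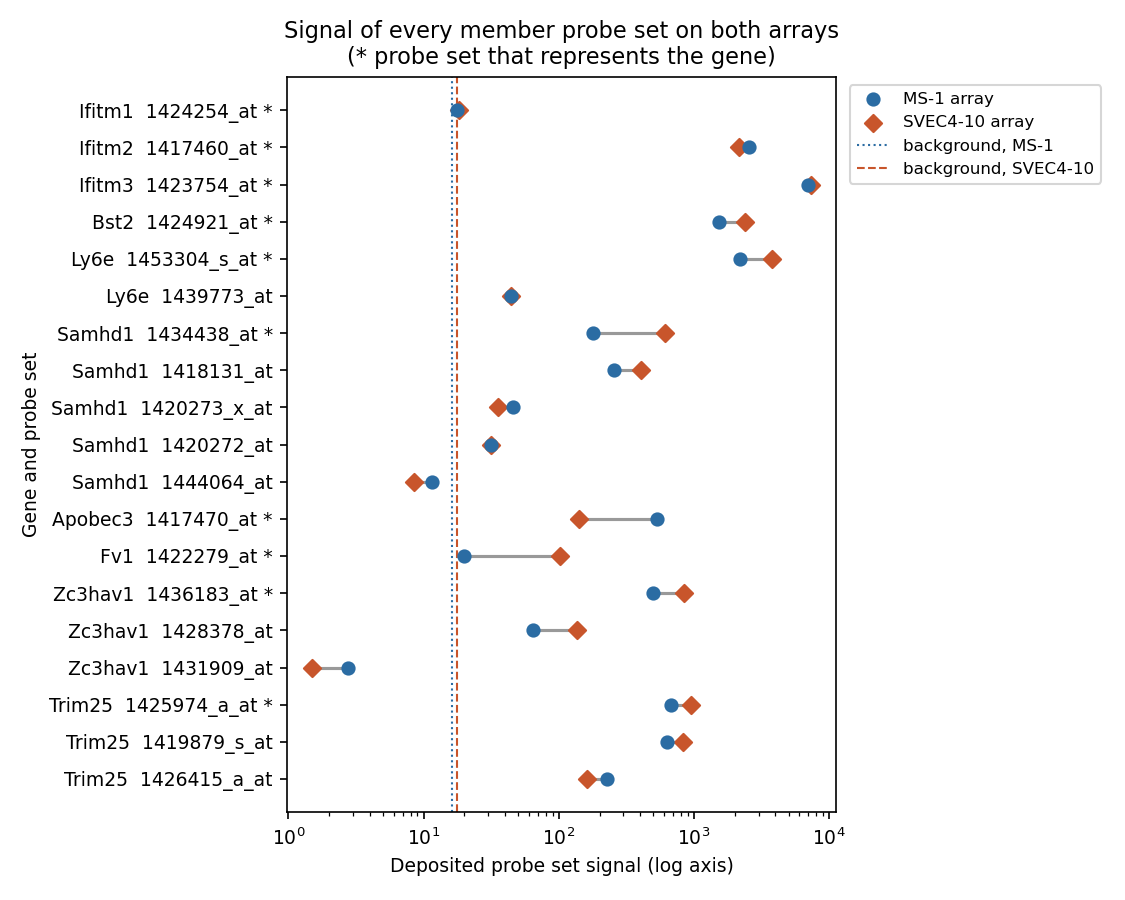
Deposited signal (log axis) of each of the 19 probe sets in MS-1 (circles) and SVEC4-10 (diamonds), joined by a line, with the background of each array as a vertical line; an asterisk marks the probe set that represents its gene. Most pairs lie close together, Fv1, Samhd1 (1434438_at) and Apobec3 have the longest lines, and 2 probe sets, 1 each of Samhd1 and Zc3hav1, lie below background on both arrays.

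**Figure D2:**
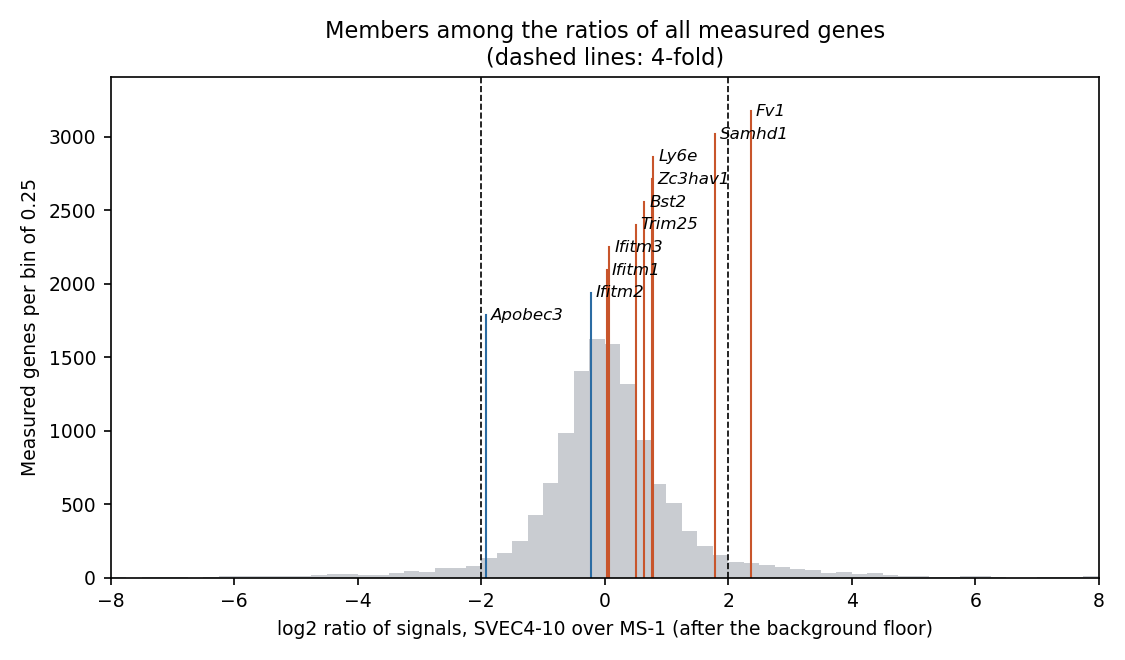
Histogram of the log2 ratio (SVEC4-10 over MS-1, bins of 0.25, values beyond 8 placed in the end bins) of 12583 measured genes, with the 10 restriction factors as vertical lines at their own ratio; line heights only separate the labels. Fv1 at 2.37 lies beyond the dashed 4-fold line, and Apobec3 at -1.93 and Samhd1 at 1.78 lie just inside. Of the other 7, Ly6e (0.79), Zc3hav1 (0.77) and Bst2 (0.64) lie above the upper quartile of all measured genes (0.58). The rest lie between the lower and upper quartiles (-0.50 and 0.58).

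Promoter sequences are shown for the 4 genes in which the interferon-stimulated response element core was found, a motif known to bind interferon-activated factors, since their ratios can then be read beside the motif. RefSeq promoters of build GRCm38.p6, from 250 bases before to 50 after the start of the gene, were held for 9 of the 10 genes (not for Ly6e). Both strands were searched for the core GAAANNGAAA and for the gamma-activated site TTCNNNGAA, and overlapping matches were kept. Each sequence is written 5′ to 3′ on the strand of the gene, with matches to either motif in capitals: Ifitm2 (chr7:140955912-140956211, minus strand), Ifitm3 (chr7:141010695-141010994, minus strand), Bst2 (chr8:71537423-71537722, minus strand) and Apobec3 (chr15:79892158-79892457, plus strand).
Ifitm2: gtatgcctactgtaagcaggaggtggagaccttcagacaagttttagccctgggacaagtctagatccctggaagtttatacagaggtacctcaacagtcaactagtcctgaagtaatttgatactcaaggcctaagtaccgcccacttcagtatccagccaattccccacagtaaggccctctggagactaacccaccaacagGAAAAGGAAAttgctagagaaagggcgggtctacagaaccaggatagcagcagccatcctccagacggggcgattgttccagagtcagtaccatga
Ifitm3: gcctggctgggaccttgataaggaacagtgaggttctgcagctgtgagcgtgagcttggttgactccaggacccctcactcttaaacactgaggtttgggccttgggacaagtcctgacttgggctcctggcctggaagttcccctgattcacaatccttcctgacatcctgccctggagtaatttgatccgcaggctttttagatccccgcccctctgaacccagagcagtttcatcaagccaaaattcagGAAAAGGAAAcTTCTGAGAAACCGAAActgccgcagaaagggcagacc
Bst2: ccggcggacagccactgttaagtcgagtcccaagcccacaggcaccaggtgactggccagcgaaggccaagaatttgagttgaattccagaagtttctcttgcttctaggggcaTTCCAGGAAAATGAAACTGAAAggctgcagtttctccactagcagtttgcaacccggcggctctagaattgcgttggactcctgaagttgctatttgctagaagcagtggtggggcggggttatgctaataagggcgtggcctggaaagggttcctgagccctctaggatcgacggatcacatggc
Apobec3: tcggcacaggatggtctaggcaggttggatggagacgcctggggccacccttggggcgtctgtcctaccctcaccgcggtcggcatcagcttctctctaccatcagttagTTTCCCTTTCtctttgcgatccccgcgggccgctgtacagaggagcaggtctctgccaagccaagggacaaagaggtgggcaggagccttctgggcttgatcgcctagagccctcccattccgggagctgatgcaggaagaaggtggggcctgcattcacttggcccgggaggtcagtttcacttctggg

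The core was held by 3.44% of 32851 promoter windows of this length, and the gamma-activated site by 8.30%. Ifitm3 had 2 core matches just after its start, from base 3 to 12 and from base 20 to 29, with a gamma-activated site between and overlapping the second of them (base 14 to 22). Bst2 also had 2, which overlap each other (bases -130 to -121 and -124 to -115), and a gamma-activated site from -136 to -128 that overlaps the first. Ifitm2 had 1 core match, from -46 to -37, and Apobec3 had 1, on the opposite strand from -140 to -131. Samhd1 had a gamma-activated site only, from -235 to -227, and neither motif was found in the windows of Ifitm1, Fv1, Zc3hav1 or Trim25, nor in a second window of Apobec3. The 4 genes with the core had log2 ratios of -0.23 (Ifitm2), 0.073 (Ifitm3), 0.64 (Bst2) and -1.93 (Apobec3), so they did not share a direction. Over the array, 358 measured genes with the core had a median log2 ratio of 0.11, and 68 of them (19.0%) were at least 2-fold higher in SVEC4-10, against 0.0019 and 14.5% for the 9801 measured genes without it. In MS-1 the shares at least 2-fold higher were 11.2% with the core and 11.7% without. For the gamma-activated site, 14.7% with it and 14.6% without were at least 2-fold higher in SVEC4-10 (medians 0.023 and 0.005). None of these differences was tested. These motif matches are descriptions of the letters, not of binding.

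**Figure D3:**
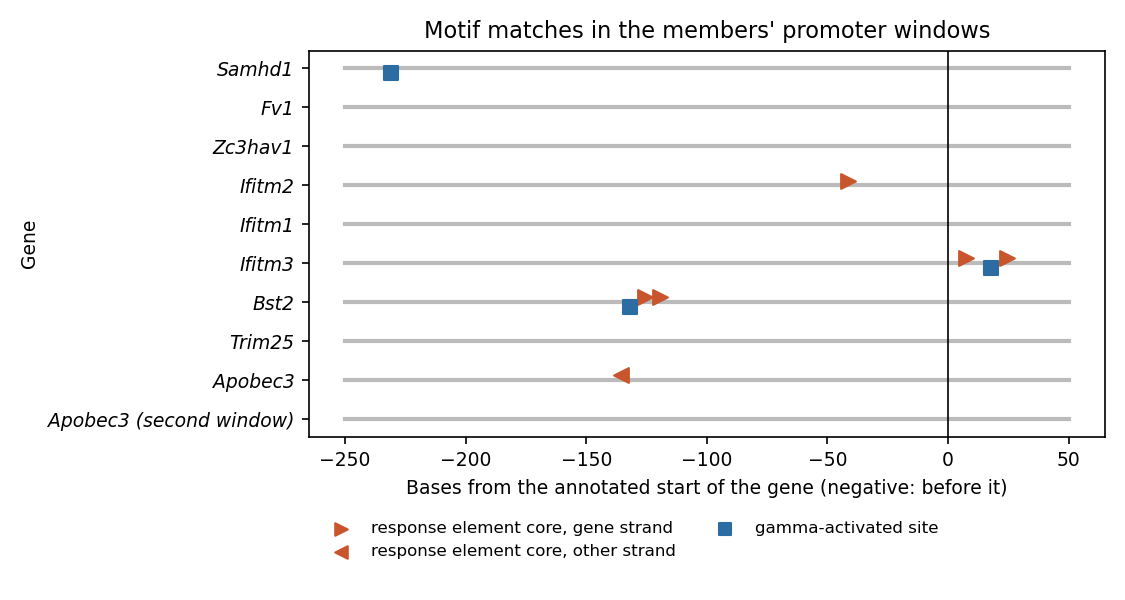
Positions of motif matches in the promoter windows of 9 genes, in bases from the annotated start (negative before it); triangles mark the response element core, pointing along its strand, and squares the gamma-activated site. Ifitm3 and Bst2 carry 2 cores and a gamma-activated site each, at different distances from the start.

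Of the IFITM genes, which act at virus entry, Ifitm2 and Ifitm3 were nearly level between the lines as deposited. Ifitm3, the broadest-acting member of the IFITM group, had a signal of 7009 in MS-1 and 7372 in SVEC4-10 (probe set 1423754_at). The signals exceed background 430- and 418-fold, so the gene was abundantly read in both lines with no interferon named in the labels. Its log2 ratio of 0.073 is smaller than the error of 0.44 for genes this bright and turned to -0.44 under poly-A scaling. Ifitm2, whose protein acts mainly in endosomes, had signals of 2531 and 2153 (1417460_at), a log2 ratio of -0.23 that is also within that error (-0.75 under poly-A scaling). Ifitm1, in other settings found largely at the plasma membrane, was different in kind: its only probe set (1424254_at) gave 17.8 and 18.3, which is 1.09 and 1.04 times background. Its ratio of 0.038 therefore says little, and with background doubled Ifitm1 counted as not measured on either array. The IFITM group was thus read as Ifitm2 and Ifitm3 in both lines, with Ifitm1 at the edge of detection.

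Ly6e, a lipid-anchored surface protein that blocks coronavirus fusion and aids the entry of some other viruses, had signals of 2184 and 3780 by 1453304_s_at, 1.73-fold higher in SVEC4-10 (log2 ratio 0.79, or 0.28 under poly-A scaling). The second probe set, 1439773_at, was far dimmer and level, with 44.1 and 44.5, so the difference rests on the first. Bst2, the tether of enveloped virions, had signals of 1526 and 2376 (1424921_at), 1.56-fold higher in SVEC4-10. Its log2 ratio of 0.64 exceeds the error of 0.44 and was 0.13 under poly-A scaling. About 23.4% of all measured genes had a ratio at least as high.

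Samhd1, the deoxynucleotide triphosphohydrolase, gave an answer that depended on the probe set. By 1434438_at its signals were 179 in MS-1 and 614 in SVEC4-10, a log2 ratio of 1.78. By 1418131_at, almost as bright, they were 257 and 407, a log2 ratio of 0.67. These 2 probe sets agree in direction and differ by more than the error of 0.45 in size. Of the other 3, 1420273_x_at had 45.8 and 35.7, 1420272_at had 31.3 on both arrays, and 1444064_at was below background on both. The ratio averaged over the 4 measured probe sets was 0.52. As deposited, Samhd1 is thus 1.59- to 3.43-fold higher in SVEC4-10 by its brighter probe sets, and its dim ones differed by less than the error of 0.54. Poly-A scaling, which lowers every ratio by 0.51, took 1434438_at to 1.27 (2.41-fold). The same shift would bring 1418131_at within the error of 0.45.

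Enzymes that make the substrate of Samhd1 differed in both directions. Of 18 measured deoxynucleotide supply and salvage genes (20 listed), 2 were at least 2-fold higher in SVEC4-10, 2 in MS-1 and 14 in neither, with a median log2 ratio of 0.032. Rrm2, the regulated subunit of ribonucleotide reductase, had signals of 1595 and 626, 2.55-fold higher in MS-1, where its other 2 probe sets gave log2 ratios of -1.56 and -1.36. Dctd, the deoxycytidylate deaminase, was 4.43-fold higher in MS-1 (429 and 96.9). Dtymk, the thymidylate kinase, was 4.93-fold higher in SVEC4-10 (334 and 1649), and Tk2, the mitochondrial thymidine kinase, 2.30-fold (50.4 and 116).

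Apobec3, which mutates retroviral DNA by deaminating cytidine, was the 1 gene of the 10 with clearly more signal in MS-1. Its single probe set, 1417470_at, had signals of 533 in MS-1 and 140 in SVEC4-10, 32.7 and 7.95 times background. The log2 ratio of -1.93 is several times the error of 0.45, and 4.56% of all measured genes had a ratio as low or lower. Over the processing alternatives it ran from -2.44 to -1.93. With a single probe set well above background on both arrays, only the rescalings could move this ratio, so its unchanged sign says little. Apobec3 is abundant in blood cells, so markers of leukocytes are given beside it: of 16 listed, 8 were measured, 7 above background in MS-1 and 3 in SVEC4-10, with summed signals of 4037 and 291. At least 2-fold differences went towards MS-1 for 3 of the 8 and towards SVEC4-10 for 1, with 4 in neither direction; the 1 was Cd14, below background in MS-1 and with a signal of 160 in SVEC4-10, at least 9.82-fold higher there. Of the MS-1 sum, 3645 was Cd68, a lysosomal protein, and Ptprc (CD45), Itgam, Tyrobp and Cd3e were not above background on either array. The part of these markers in the Apobec3 value was not tested, and in bulk RNA fewer cells that express a gene and less RNA per cell cannot be told apart. Alleles of Apobec3 and of Fv1 are known to differ between inbred mice, and whether a sequence difference touched their probes was not tested.

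Other deaminases were few. Of 11 listed, 6 were measured, 1 at least 2-fold higher in SVEC4-10, 2 in MS-1 and 3 in neither. Apobec1, the RNA-editing relative of Apobec3, was below background in MS-1 and had a signal of 83.6 in SVEC4-10, at least 5.13-fold higher. Cda, a cytidine salvage enzyme, was 3.71-fold higher in MS-1 (379 and 102), and Adarb1, an adenosine deaminase of RNA, at least 2.77-fold (48.8, and below background in SVEC4-10).

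Fv1, a protein derived from an endogenous retroviral gag gene, had the largest difference of the 10. Its single probe set, 1422279_at, had a signal of 19.8 in MS-1, 1.21 times background, and of 102 in SVEC4-10, 5.80 times background. The log2 ratio of 2.37 was matched or exceeded by 4.47% of all measured genes, and the error at this dimness is 0.54. The gene was therefore seen well in SVEC4-10 and scarcely in MS-1. With background doubled the MS-1 value lay below it and the difference became at least 3.14-fold (log2 ratio 1.65), a bound that cannot show whether 4-fold is reached. Under poly-A scaling the difference was 3.63-fold (log2 ratio 1.86), short of 4-fold.

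Zc3hav1 and its partner Trim25 were less than 2-fold brighter in SVEC4-10 by their brightest probe sets, and for Trim25 this direction was not held by all values. Zc3hav1 had signals of 494 and 843 by 1436183_at and of 64.6 and 136 by 1428378_at, log2 ratios of 0.77 and 1.08, while 1431909_at was below background on both arrays. The 2 measured probe sets lie closer to each other than the error, and the first gave 0.26 under poly-A scaling. Trim25 had signals of 678 and 957 by 1425974_a_at and of 626 and 836 by 1419879_s_at, log2 ratios of 0.50 and 0.42. The remaining probe set, 1426415_a_at, pointed the other way with 226 and 161 (-0.49), and poly-A scaling took the first to -0.015.

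Genes listed with this pair, some of them only relatives of ZAP, were mostly within 2-fold, as were most measured genes. Of 18 measured ZAP cofactors and PARP relatives (19 listed), 4 were at least 2-fold higher in SVEC4-10, 1 in MS-1 and 13 in neither. The shares over all measured genes were 15.3% in SVEC4-10 and 12.1% in MS-1. The list had a median log2 ratio of 0.077. Khnyn, the nuclease that acts with ZAP, had signals of 113 and 58.0, a log2 ratio of -0.96, with -0.33 at its second probe set. Parp9, Parp12 and Parp14, interferon-induced relatives of ZAP, were 3.58-fold (185 and 662), 3.11-fold (449 and 1397) and 2.91-fold (79.5 and 232) higher in SVEC4-10. Riok3, a kinase, was 2.15-fold higher there by 1 probe set, and its other 2 ranged from -0.24 to 1.16 on the log2 scale. Zc3hav1l, a ZAP-like gene, was 2.23-fold higher in MS-1 (187 and 83.9).

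Trim25 also modifies the RNA sensor RIG-I. Of 12 measured genes listed with that pathway, some of them only related to it (14 listed), 4 were at least 2-fold higher in SVEC4-10, 0 in MS-1 and 8 in neither (median 0.21). The 4 were Usp18, Dhx58, Ifih1 and Ube2l6, and the 8 include Mavs (-0.17), Tbk1 (0.62) and Irf3 (-0.48). Ddx58, which encodes RIG-I, had signals of 437 and 606, a log2 ratio of 0.47, and 1.17 at its second probe set. Ifih1, the related sensor MDA5, was 4.88-fold higher in SVEC4-10 (199 and 972), Usp18, which removes ISG15 from proteins, 35.9-fold (75.8 and 2722), and Dhx58 at least 8.67-fold, although another of its probe sets gave -0.068. Rnf135, the ligase Riplet, was level (87.9 and 81.3).

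In the interferon pathway, which acts upstream of many of these genes, the type I receptor chains differed by less than 2-fold and 3 named transcription factors were brighter in SVEC4-10. Ifnar1 and Ifnar2, the 2 chains of the type I receptor, had signals of 260 and 235, and of 360 and 390, by their brightest probe sets, while the further probe sets gave log2 ratios of -0.72 for Ifnar1 and of -0.69 and -0.49 for Ifnar2. Irf7 was 9.88-fold (58.7 and 581), Stat2 5.55-fold (83.9 and 466) and Irf9 3.27-fold (197 and 646) higher in SVEC4-10, and Irf8, a factor of blood cells, at least 18.4-fold higher in MS-1 (324). Over the list, 5 of 19 measured genes (23 listed) were at least 2-fold higher in SVEC4-10, 1 in MS-1 and 13 in neither (median 0.29). Usp18, among the 5, and Irf3 are also counted in the RIG-I list.

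Among 26 other measured restriction factors (29 listed), 10 were at least 2-fold higher in SVEC4-10, 3 in MS-1 and 13 in neither, with a median log2 ratio of 0.51. At 4-fold the counts were 8 and 2. Isg20, an RNA exonuclease, was 27.8-fold (23.6 and 657), Sp100, a nuclear body protein, 14.1-fold (17.6 and 248; at least 5.21-fold by its second probe set) and Serinc5, which lowers the infectivity of retroviral particles, 11.2-fold (36.7 and 412) higher in SVEC4-10. In the opposite direction stood Ch25h, whose product 25-hydroxycholesterol hinders membrane fusion, at least 220-fold higher in MS-1 (3878), and Slfn5, at least 16.2-fold (285), or at least 5.98-fold by a further measured probe set and at least 8.11-fold with background doubled. Trim34a was 3.03-fold higher in MS-1 by 1 probe set and had a log2 ratio of 1.26 by another. The log2 ratios of these 26 genes ran from -7.78, a bound, to 4.80, beside -1.93 to 2.37 for the 10 genes described here. A range widens with the number of genes, so these 2 cannot be compared as spreads, and the difference was not tested.

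**Figure D4:**
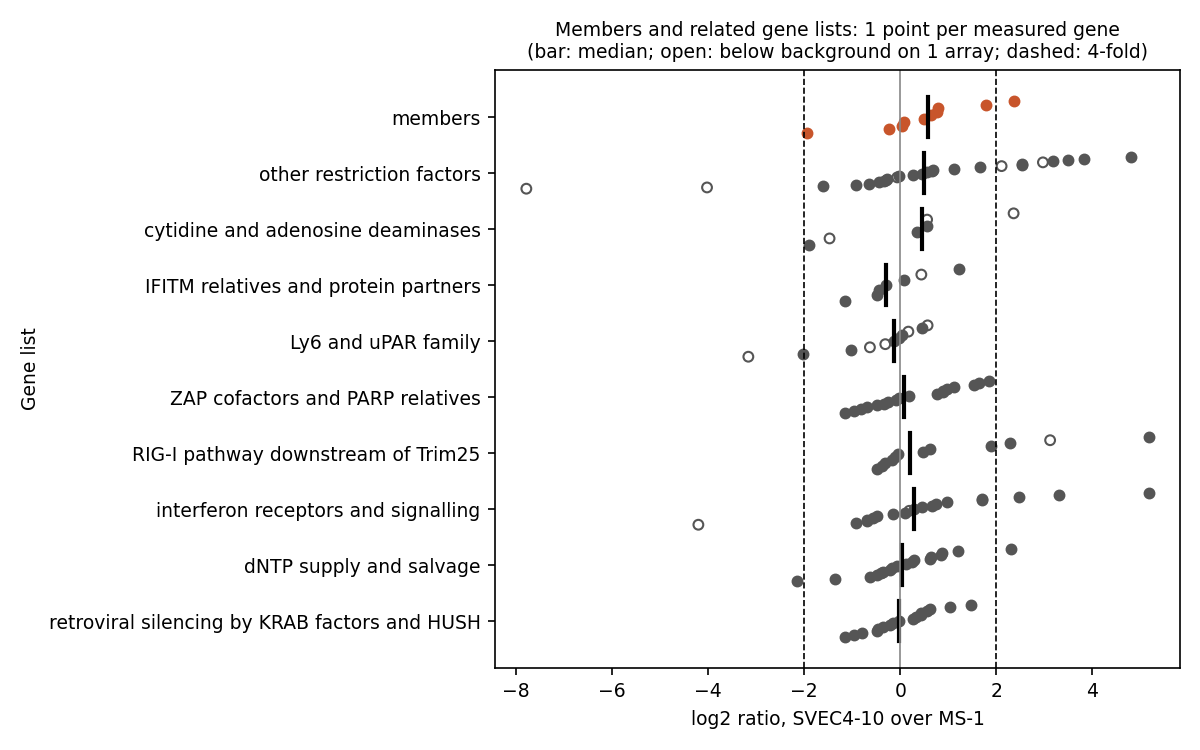
Log2 ratio (SVEC4-10 over MS-1) of each measured gene of the 10 restriction factors (top row) and of 9 related lists; bars are medians, open points are bounds because 1 array was below background, and dashed lines mark 4-fold. The top row (10 genes) lies between -1.93 and 2.37, and the other restriction factors (26 genes) reach from -7.78, a bound, to 4.80.

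Protein families of the surface factors were also read. Of 7 measured IFITM relatives and partners (10 listed), 1 was at least 2-fold higher in SVEC4-10, 1 in MS-1 and 5 in neither (median -0.29). Zmpste24, a protease that works with IFITM proteins, was 2.22-fold higher in MS-1 (1368 and 617), and Bsg, the surface glycoprotein basigin, 2.33-fold higher in SVEC4-10 (1980 and 4612). Of 11 measured genes of the Ly6 and uPAR family (25 listed), 3 were at least 2-fold higher in MS-1, 0 in SVEC4-10 and 8 in neither (median -0.13). Gpihbp1, the capillary anchor of lipoprotein lipase, was at least 8.92-fold (157), Plaur, the urokinase receptor, 4.07-fold (1868 and 459) and Lynx1 2.05-fold (63.2 and 30.9) higher in MS-1, opposite to Ly6e. Ly6a and Ly6c1 were not analysed here.

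**Figure D5:**
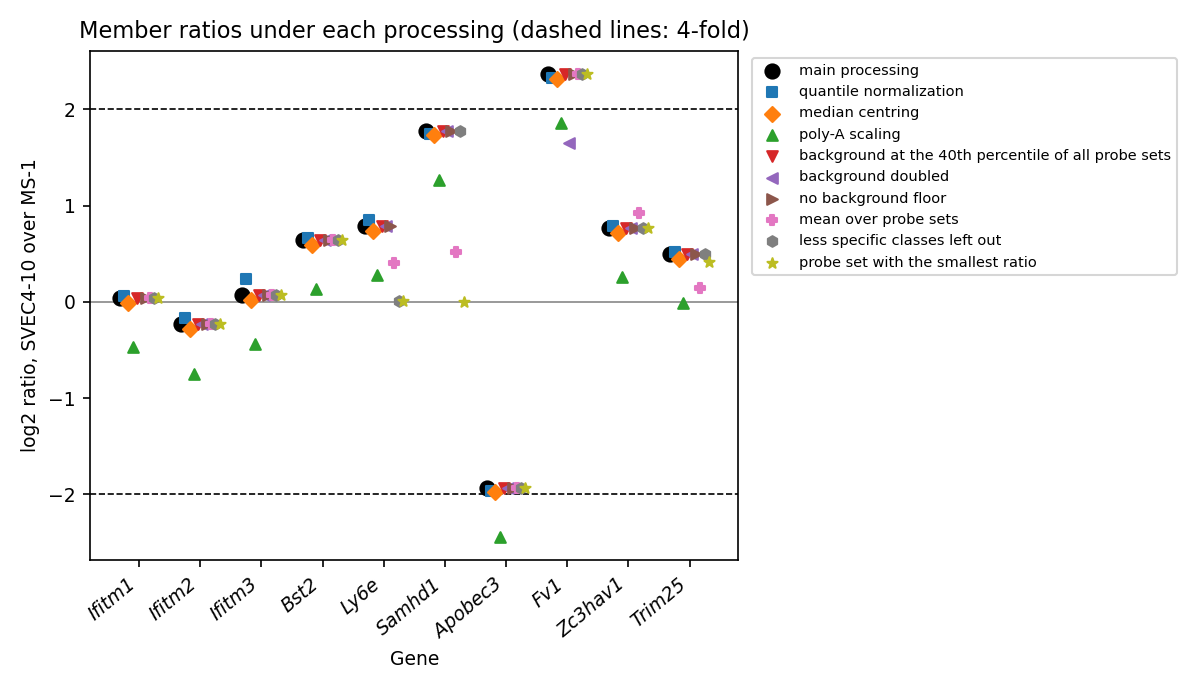
Log2 ratio (SVEC4-10 over MS-1) of each of the 10 genes under the main processing (black circles) and 9 alternatives, with 4-fold as dashed lines. Apobec3 and Ifitm2 stay below 0 and Fv1, Bst2 and Zc3hav1 above 0 throughout. Apobec3, Ifitm2, Fv1 and Bst2 have a single probe set each, so the probe set choices could not move them. Samhd1 and Ly6e move most with the choice of probe set and stay barely above 0 (lowest 0.0018 and 0.013). Poly-A scaling (green triangles) takes Ifitm1, Ifitm3 and Trim25 below 0, as median centring does for Ifitm1.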

How the data were processed

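Total RNA (6 ug, Trizol) was turned, per the labels' protocols, into biotinylated cRNA and hybridised to Affymetrix arrays. Deposited probe set intensities are on a linear scale from 0.0687 to 14783. How probe signals were summarised, and with which software, is not stated in the sources read here. The 2%-trimmed mean was 150.001 for each array, so the authors' values had been scaled to 1 target, and they were used as deposited. A difference in total RNA between the lines would shift all ratios together. The 45101 probe sets comprised 64 controls, 34945 with 1 gene (34741 matched by gene ID to the RefSeq table of GRCm38.p6, used for names and promoters), 932 with several and 9160 unnamed here. None of the several-gene probe sets named 1 of the 10 genes.

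Signals below background were raised to it before log2, so such ratios are bounds. Genes exceeding background in either line count as measured; each is represented by its brightest measured probe set on the mean log2 scale, avoiding the _x_at class where another existed. Arrays, not read depth, limit the precision, and their number is 1 per line. No test was possible; genes are counted by fold. Named genes were all 10 restriction factors, up to 3 per direction and list at least 2-fold apart, and fixed pathway genes. The genes and lists were chosen with earlier results of these data known. The steps were tested on simulated data with changes planted in bright genes only. Differences near background, as for Ifitm1 and for Fv1 in MS-1, were not tested that way. Python 3.11.15, pandas 2.3.3, NumPy 2.4.6 and Matplotlib 3.10.9 were used. The 11 alternatives were quantile, median and poly-A scaling, 2 other background levels, no floor, 3 other choices of probe set, and 2-fold and 8-fold limits; the closing section gives their effect.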

Additional observations from a re-analysis of the deposited data

How the results depend on the processing

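No paired analysis was possible because each line has 1 array, and for the same reason no array could be left out. The count of restriction factors at least 4-fold higher in SVEC4-10 was 1, and became 0 under poly-A scaling, with background doubled and at an 8-fold threshold, and 2 at 2-fold. With background doubled the Fv1 ratio is a lower bound. The count at least 4-fold higher in MS-1 was 0, and became 1 under poly-A scaling and at 2-fold. The median log2 ratio of 0.57 became 0.056 under poly-A scaling and 0.055 with the probe set of smallest ratio, and lay between 0.27 and 0.64 in the other alternatives. Relative to the median of all genes it was 0.55, which poly-A scaling leaves as it is by construction, and became 0.25 with the mean over probe sets, 0.27 without the less specific classes and 0.047 with the probe set of smallest ratio. Median centring of expressed probe sets changed the split of the 10 genes from 8 and 2 to 7 and 3. Dhx58, from a related list, reversed to -0.068 with the probe set of smallest ratio. For the 10 genes, 74 single-gene alternatives moved by less than the error of 0.48 and 15 by more. Poly-A scaling moved every gene by more. Many alternatives could change little, because 6 genes have 1 probe set and all 10 were above background on both arrays. There were 0 reversals, but only a 4-fold difference could count as reversed. Fv1 alone had such a difference, by its single probe set, so this absence says little. The cause of these changes was not tested, beyond the shift that the scaling itself makes.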

Other observations

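Listed genes that silence endogenous retroviruses, through KRAB zinc-finger proteins and the HUSH complex, mostly differed by less than 2-fold, as most measured genes did. Of 17 measured genes (18 listed), 2 were at least 2-fold higher in SVEC4-10, 1 in MS-1 and 14 in neither, with a median log2 ratio of -0.024. Over all measured genes the shares were 15.3% in SVEC4-10 and 12.1% in MS-1. Trim28, the corepressor that KRAB proteins recruit, had signals of 1404 and 2153, and Setdb1, its histone methyltransferase, 174 and 255. Tasor, a subunit of HUSH, was 2.20-fold higher in MS-1 (124 and 56.4). Dnmt3a, a DNA methyltransferase, was 2.77-fold higher in SVEC4-10 (25.9 and 71.6), with log2 ratios from -0.13 to 1.59 at its other 3 probe sets. Chaf1b, a histone chaperone, was 2.06-fold higher there, but its second probe set gave -0.84. Trim28 and Setdb1 were named after their values were seen.

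Of 6 measured epithelial markers (10 listed), 2 were at least 2-fold higher in SVEC4-10 and 4 in neither, with summed signals of 129 and 335.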
